A study of Mus musculus with 60 samples.

Results

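The genes described here encode RNA polymerase II and the Mediator complex. They were the protein-coding genes of the expression table whose symbols began with Polr2, or with Med and a number, and 42 of 27238 genes met that rule. RNA polymerase II contributed 13 genes (Polr2a to Polr2m) and Mediator 29. Polr2k-ps, a pseudogene, and Med9os, an antisense transcript, were left out because they do not code for protein, and Med10 was not analysed here. RNA was sequenced from single mouse embryos of 3 types at 6 stages (the 1-cell, 2-cell, 4-cell and 8-cell stages, the morula and the blastula), and from the 2 kinds of donor cell, with 3 libraries in each of 20 groups and 60 libraries in all. In vivo embryos were recovered from C57BL/6 females mated with DBA2 males. NTC embryos were made by nuclear transfer (NT) of cumulus cell (CC) nuclei, and NTM embryos by transfer of nuclei of mouse embryonic fibroblasts (MEF), into enucleated oocytes of superovulated BDF1 females aged 8 to 10 weeks. The donor CCs and MEFs had the BDF1 background too, so the nuclear genomes of all groups shared it. CCs came from females, while the sex of the MEFs and of the in vivo embryos was not stated. Med12 and Med14 lie on the X chromosome, and the part of sex in their values was not tested. The oocytes came from C57BL/6 females in the in vivo group and from BDF1 females in the NT groups. No mutation or transgene was named for any group. MEFs came from mid-gestation fetuses and were starved of serum before transfer. The NT embryos were activated with strontium, exposed to cytochalasin B and the histone deacetylase inhibitor Scriptaid, and cultured in vitro. The in vivo embryos were not. Nuclear transfer, drugs, culture and the strain of the oocyte donor thus cannot be told apart in a comparison with the in vivo group. Embryos were picked by morphology.

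RNA polymerase II is the enzyme that transcribes protein-coding genes. Polr2a and Polr2b encode the largest subunits, which form the catalytic cleft, and the tail of Polr2a carries the repeats that are phosphorylated as transcription starts and elongates. Polr2e, Polr2f, Polr2h, Polr2k and Polr2l encode small subunits that RNA polymerases I and III also use, whereas Polr2c, Polr2d, Polr2g, Polr2i and Polr2j belong to RNA polymerase II. Polr2m (Gdown1) is a protein that binds the enzyme and makes its initiation depend on Mediator. Mediator is the large complex that links DNA-bound transcription factors to RNA polymerase II. Its head and middle modules touch the polymerase, Med14 is the backbone that joins the modules, the tail receives activators, and a kinase module of Med12 or Med12l, Med13 or Med13l, cyclin C and a cyclin-dependent kinase binds reversibly. The mouse oocyte stops transcribing when it is full grown, so the first embryonic stages live on stored RNA. That store is destroyed around the 2-cell stage as the embryonic genome becomes active, and polymerase and Mediator RNA must then be supplied by the embryo itself.

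The coding sequences of Polr2k and Polr2l are shown because they were the shortest of the 42 genes, with 177 and 204 bases from start to stop codon (GENCODE M21 transcripts, GRCm38), and because both genes were among the members whose 4-cell in vivo libraries lay above all other libraries. In these lines, which run 5′ to 3′, the start and the stop codon are in capitals.
Polr2k: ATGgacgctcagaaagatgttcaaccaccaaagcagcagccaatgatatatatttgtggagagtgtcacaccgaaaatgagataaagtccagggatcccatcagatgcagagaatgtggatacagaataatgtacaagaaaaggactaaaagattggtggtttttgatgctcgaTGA
Polr2l: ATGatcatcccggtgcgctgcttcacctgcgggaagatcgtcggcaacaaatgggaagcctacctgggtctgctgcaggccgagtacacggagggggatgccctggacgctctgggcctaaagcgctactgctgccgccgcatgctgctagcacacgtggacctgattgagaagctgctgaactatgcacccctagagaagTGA

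Promoters are shown for Polr2h and Med29, which had the largest increases from the 2-cell to the 4-cell stage in the in vivo group, and for Polr2c and Med15, which fell over the same interval in all 3 types of embryo. RefSeq promoters (GRCm38.p6, 250 bases before to 50 bases after a RefSeq start) were found for 35 of the 42 members. Where a gene had several, the first listed is printed. The printed promoters lie at chr16:20717576-20717875 on the plus strand (Polr2h), chr7:28392641-28392940 on the minus strand (Med29), chr8:94857200-94857499 on the plus strand (Polr2c) and chr16:17722898-17723197 on the minus strand (Med15). The Med15 stretch lies inside the gene as annotated in GENCODE M21 (chr16:17651208-17732891), so it is not at the outermost start of that gene. Capitals mark matches, on either strand, to the GC box (letters GGGCGG), the CCAAT box (its own letters), an Ets motif (letters CCGGAAG), an Nrf1 motif (letters GCGCATGC), the TATA box (letters TATAAA) and a YY1 motif (letters AAGATGGC), and all lines run 5′ to 3′ along the strand of the gene.
Polr2h: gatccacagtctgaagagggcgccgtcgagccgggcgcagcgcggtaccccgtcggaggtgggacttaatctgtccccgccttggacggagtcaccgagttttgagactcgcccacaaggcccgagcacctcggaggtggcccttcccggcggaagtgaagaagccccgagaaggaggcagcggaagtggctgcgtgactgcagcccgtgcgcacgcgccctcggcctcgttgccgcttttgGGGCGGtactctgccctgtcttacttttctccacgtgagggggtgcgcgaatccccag
Med29: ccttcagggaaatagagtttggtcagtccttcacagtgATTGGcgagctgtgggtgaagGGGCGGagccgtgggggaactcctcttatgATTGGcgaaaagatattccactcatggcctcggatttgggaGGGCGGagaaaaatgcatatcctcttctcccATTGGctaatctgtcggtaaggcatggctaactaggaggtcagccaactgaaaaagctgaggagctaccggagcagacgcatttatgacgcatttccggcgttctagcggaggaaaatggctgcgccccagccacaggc
Polr2c: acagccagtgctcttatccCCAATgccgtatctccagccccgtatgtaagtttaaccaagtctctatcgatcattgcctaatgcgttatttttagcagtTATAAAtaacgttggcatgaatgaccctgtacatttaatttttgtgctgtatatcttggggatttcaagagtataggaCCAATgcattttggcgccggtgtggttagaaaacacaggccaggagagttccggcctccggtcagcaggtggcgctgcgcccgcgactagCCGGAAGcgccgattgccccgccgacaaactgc
Med15: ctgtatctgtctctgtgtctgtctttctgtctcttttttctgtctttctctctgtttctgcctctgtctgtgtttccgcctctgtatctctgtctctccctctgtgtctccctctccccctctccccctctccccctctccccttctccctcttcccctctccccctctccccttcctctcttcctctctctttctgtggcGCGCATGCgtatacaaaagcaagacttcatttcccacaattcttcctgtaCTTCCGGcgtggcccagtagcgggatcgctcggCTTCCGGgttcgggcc

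The Polr2h promoter held a GC box, and that of Med29 held GC boxes and CCAAT boxes. The Polr2c promoter held CCAAT boxes, a TATA box and an Ets motif, and that of Med15 an Nrf1 motif and Ets motifs. Among the 35 members with a promoter the GC box was found in 24 (68.6%), against 58.6% of all 13865 genes with a promoter of that length. A gene was counted when any of its promoters matched. The CCAAT box was found in 14 (40%, against 42.2%), the Ets motif in 10 (28.6%, against 15.6%), the Nrf1 motif in 5 (14.3%, against 4.81%), the TATA box in 5 (14.3%, against 11.2%) and the YY1 motif in 1 (2.86%, against 4.18%). These are letter matches, given as a description with no test.

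Values are RPKM, read counts scaled for gene length and library size, as the authors deposited them. Read counts recovered from the steps of the RPKM values gave 5294167 to 47830132 reads on genes per library, with a median of 15451428. RPKM is a share of the RNA in a library, so fewer cells of a type and less RNA per cell cannot be told apart. Genes were compared with limma on log2(RPKM + 1), a scale on which differences of low genes are understated, and were called when the Benjamini-Hochberg adjusted p over all genes tested was under 0.05 and the log2 difference at least 1. A gene entered a comparison if its mean RPKM in the libraries compared was at least 0.5. All adjusted p-values given here are from this test. The libraries of a group came from separate embryos or cell samples, and nothing further was stated on their independence, so p-values measure the spread between these samples.

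Marker lists separated some of the labelled groups and not others. Summed markers of fibroblasts (10 genes, 0 of them at 0 in all MEF libraries) reached 5522 to 8316 RPKM in MEF against 4.66 to 15.7 RPKM in CC, and summed oocyte transcripts (9 genes) were at least 1732 RPKM in every 1-cell and 2-cell library and at most 470.8 RPKM later. The cumulus list (10 genes, with Has2 and Cyp19a1 at 0 in CC and Foxl2 and Cyp19a1 at 0 in MEF) did not separate CC (481.1 to 792.8 RPKM) from MEF (496.1 to 1209 RPKM). Summed transcripts of the 2-cell burst of transcription (9 genes) were 50.45 to 2066 RPKM in 2-cell in vivo and 135.4 to 351.9 RPKM in 2-cell NTC libraries. In 2-cell NTM libraries they were 5.62 to 84.3 RPKM, with Zscan4c, Zscan4d, Zscan4f, Tdpoz3 and Usp17lc at 0 in all 3, and their part in the NTM results at the 2-cell stage was not tested. The 4-cell in vivo libraries stood apart from the 4-cell NT and the 8-cell in vivo libraries. Mitochondrial genes took 5.68 to 8.87% of their reads, against 29.6 to 40.4% in 4-cell NT libraries and 32.1 to 45.05% in 8-cell in vivo libraries. They had 13576 to 13932 genes above 0, against 8997 to 11929 in 4-cell NT libraries and 9913 to 10304 in 8-cell in vivo libraries. They overlapped the 2-cell in vivo libraries on both measures (7.32 to 12.7% and 10667 to 14582 genes). The main comparisons that rest on them are also given with 8-cell libraries in their place, an alternative chosen after the data had been seen.

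The order of the 42 members changed between the 2-cell and the 4-cell stage. At the 1-cell and 2-cell stages Polr2c and Med30 were the 2 most abundant members in all 3 types of embryo, and together made up 37.5 to 63.0% of the summed RPKM of the 42 genes. At the 4-cell stage their share was 4.95% in vivo, 7.99% in NTC and 12.2% in NTM. Med6, a head subunit that contacts the polymerase, had the highest mean among the members at the 4-cell stage in NTC (137 RPKM) and NTM (211 RPKM), while in vivo 4-cell embryos were led by Polr2f (992 ± 264 RPKM, SD, n = 3). In donor cells the leading members were Polr2c (178 RPKM) in CC and Polr2g (109.9 RPKM) in MEF. At the other end, 12 combinations of a member and a group had no read in any of the 3 libraries, and 6 of these were Med12.

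**Figure D1:**
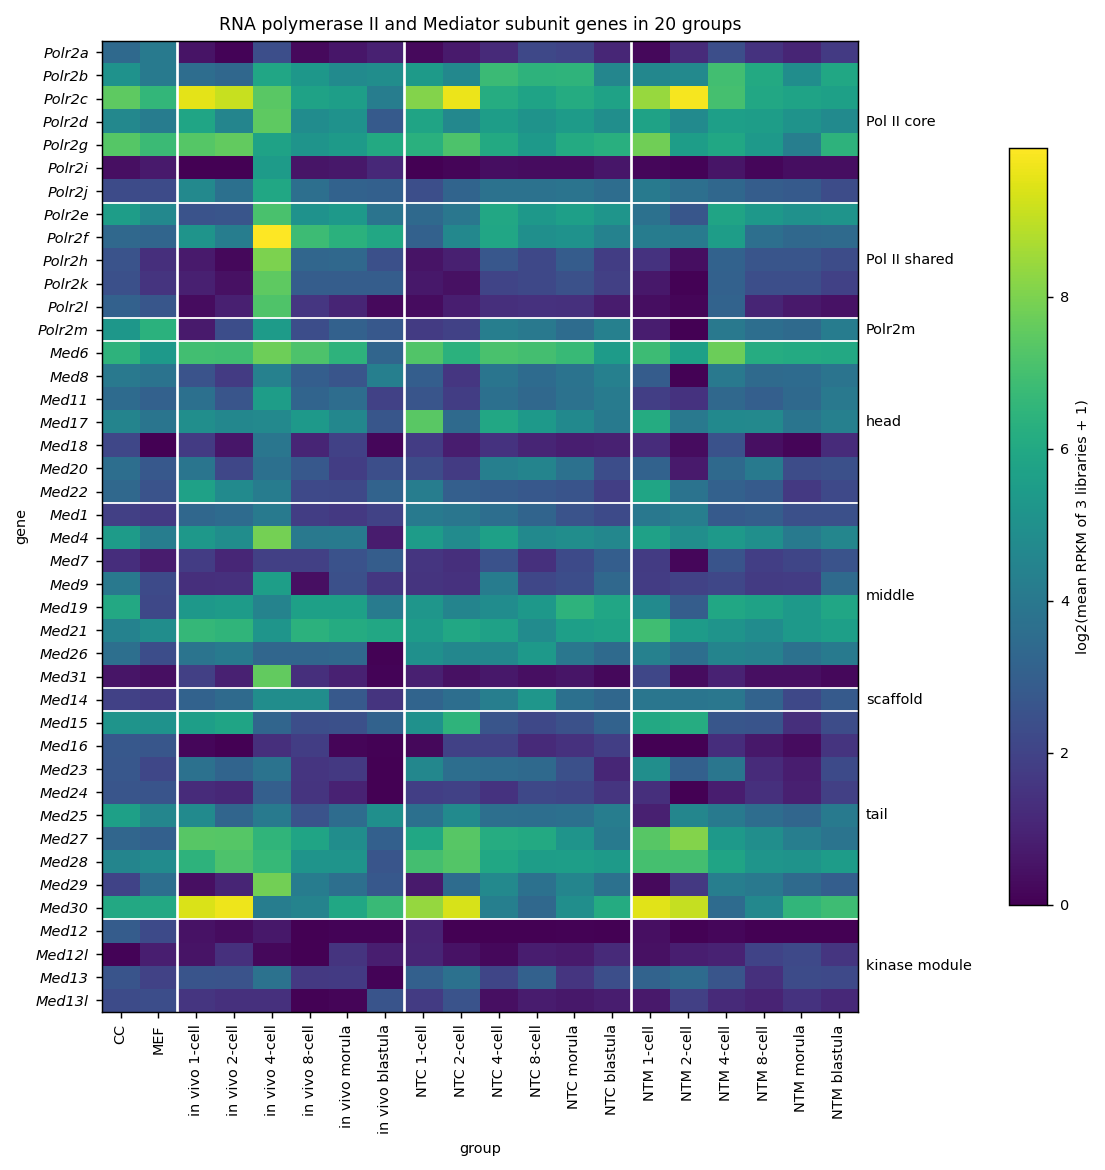
Heat map of the 42 RNA polymerase II and Mediator genes (rows, grouped by role) in the 20 groups (columns). Colour is log2 of the mean RPKM of 3 libraries plus 1. Polr2c and Med30 are brightest in 1-cell and 2-cell embryos, and the 4-cell in vivo column is bright for the small polymerase subunits, where the mean of Polr2f was 992 RPKM.

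The first comparison asked how the members changed from the 2-cell to the 4-cell stage, the interval in which stored maternal RNA gives way to embryonic transcription. In the in vivo group, 22 of 41 members tested were up-regulated and 4 were down-regulated, against 31.4% up-regulated and 20.8% down-regulated among all 12995 genes tested. In NTC embryos 10 of 38 rose and 7 fell (all genes: 16.4% and 20.1%), and in NTM embryos 11 of 39 rose and 4 fell (all genes: 12.1% and 14.3%). The median log2 difference of the tested members was 1.53 in vivo, 0.57 in NTC and 0.88 in NTM, and that of all tested genes 0.36, −0.20 and −0.20. By role, all 5 shared small subunits rose in vivo, as did 4 of 7 head, 3 of 8 middle and 3 of 9 tail subunits of Mediator, while 0 of the 3 kinase module genes tested were called. Without NTC 4-cell replicate 3 the NTC count of 17 called members was 10. Without NTM 2-cell replicate 2 the NTM count of 15 was 8, without NTM 2-cell replicate 3 it was 9, and without NTM 4-cell replicate 3 it was 9. With nuclear genes only, the NTC split was 14 higher and 6 lower.

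The members that fell in all 3 types of embryo were Polr2c, Med15 and Med30. The share of all genes that fell in all 3 types was not computed. Med30 encodes a metazoan-specific Mediator subunit. Its 2-cell values were 377, 849.9 and 1254 RPKM in vivo, 665, 804 and 505 RPKM in NTC and 622, 539 and 475 RPKM in NTM. Its 4-cell values were 21.04, 15.7 and 16.7 RPKM in vivo, 9.02, 24.2 and 22.7 RPKM in NTC and 21.2, 0.352 and 8.47 RPKM in NTM. The 2-cell and 4-cell libraries did not overlap in any of the 3 types. The log2 difference was −5.31 ± 0.47 (SE, adjusted p = 0.000132) in vivo, −5.16 ± 0.43 (SE, adjusted p = 0.000151) in NTC and −6.37 ± 0.94 (SE, adjusted p = 0.00223) in NTM. Its blastula values were 0.146, 189 and 132 RPKM in vivo, 62.8, 83.6 and 58.9 RPKM in NTC and 79.7, 80.96 and 186 RPKM in NTM, with 1 in vivo blastula near 0 and all others above the 4-cell libraries.

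Med15 encodes a tail subunit that binds activators. Its values were 40.4, 46.3 and 78.9 RPKM at the 2-cell stage and 10.6, 6.79 and 7.95 RPKM at the 4-cell stage in vivo, a log2 difference of −2.53 ± 0.40 (SE, adjusted p = 0.00152). In NTC embryos the values were 125, 79.8 and 60.5 RPKM and then 3.93, 4.67 and 6.66 RPKM, a difference of −3.84 ± 0.44 (SE, adjusted p = 0.000438). In NTM embryos they were 72.5, 82.1 and 55.7 RPKM and then 4.94, 9.44 and 1.68 RPKM, a difference of −3.67 ± 0.67 (SE, adjusted p = 0.00506). The stages did not overlap in any of the 3 types.

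Polr2c encodes the third-largest core subunit, which pairs with Polr2j in the assembly of the enzyme. Its 2-cell values were 397, 337 and 911 RPKM in vivo, 758, 966 and 732 RPKM in NTC and 1317, 669 and 729.6 RPKM in NTM. Its 4-cell values were 162, 153 and 189 RPKM in vivo, 51.3, 74.1 and 86.2 RPKM in NTC and 100.2, 66.7 and 224 RPKM in NTM. Each 4-cell library was below each 2-cell library of its type. The log2 difference was −1.56 ± 0.41 (SE, adjusted p = 0.016) in vivo, −3.54 ± 0.30 (SE, adjusted p = 0.000159) in NTC and −2.90 ± 0.54 (SE, adjusted p = 0.00566) in NTM. The exons of Polr2c overlap those of Dok4 on the opposite strand, and use of strand in counting was not stated, so reads of the pair cannot be told apart. The calls on Med30, Med15 and Polr2c in the NTC and NTM groups, and on Med30 and Med15 in vivo, held when any 1 library was left out.

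The other declining members differed by group. Polr2g, which forms the stalk of the enzyme with Polr2d, was down-regulated in vivo, from 74.9, 294 and 196 RPKM to 46.8, 52.3 and 58.7 RPKM (−1.62 ± 0.52, adjusted p = 0.0334), and it was called in 1 of 6 fits without 1 library. The call was lost without in vivo 2-cell replicate 2 (−1.20) or 3 (−1.49), or without in vivo 4-cell replicate 1 (−1.54), 2 (−1.62) or 3 (−1.70). In NTC embryos Med27, Med28, Med13 and Med13l were also down-regulated, with log2 differences from −2.17 to −1.21, and in NTM embryos Med27 (−2.66 ± 0.47, adjusted p = 0.00445). Med27 and Med28 are often placed with the tail, and Med13 and Med13l belong to the kinase module.

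The members that rose in all 3 types of embryo were Polr2e, Polr2h, Polr2k, Polr2m, Med8 and Med20, and for these too the share of all genes was not computed. Med8 and Med20 are head subunits. Med20 went from 2.59, 4.23 and 3.31 RPKM to 10.5, 9.99 and 14.5 RPKM in vivo (1.53 ± 0.36, adjusted p = 0.00946). It went from 1.07, 5.62 and 0.129 RPKM to 16.5, 16.6 and 22.8 RPKM in NTC (2.96 ± 0.67, adjusted p = 0.00916) and from 0, 1.51 and 0.463 RPKM to 4.65, 5.62 and 18.6 RPKM in NTM (2.55 ± 0.74, adjusted p = 0.0341). The stages did not overlap in any type, and an annotated protein-coding gene, Gm20517, shares exons with Med20 on the same strand. Med8 in NTM embryos went from 0, 0 and 0.135 RPKM to 17.5, 8.9 and 18.8 RPKM (3.88 ± 0.62, adjusted p = 0.00299).

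Polr2m was not detected in 2-cell NTM embryos (0 reads in each of 3 libraries, which allows up to 0.0632 to 0.0999 RPKM), and stood at 9.86, 13.8 and 22.7 RPKM in 4-cell NTM embryos. The mean at the 4-cell stage was at least 154-fold higher than the highest limit that 3 reads in 1 library allow. In NTC embryos Polr2m was 0.0698, 8.21 and 0 RPKM and then 14.1, 21.3 and 18.3 RPKM (3.12 ± 0.84, adjusted p = 0.0194). That call was lost without NTC 2-cell replicate 1 (2.62) or 3 (2.57), or without NTC 4-cell replicate 2 (2.99) or 3 (3.10). In vivo it was 0.0886, 11.99 and 0.0499 RPKM and then 23.8, 70.0 and 36.4 RPKM. In each type the 4-cell libraries lay above the 2-cell libraries.

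Polr2e, a shared subunit of the 3 nuclear polymerases, stood at the 4-cell stage at 146, 126 and 139.5 RPKM in vivo, 73.3, 54.2 and 56.5 RPKM in NTC and 39.1, 55.8 and 70.6 RPKM in NTM, and at the 2-cell stage at 3.098, 6.44 and 5.91, 5.14, 19.6 and 18.2 and 11.4, 4.38 and 0.454 RPKM in the same order. The NTM difference of 3.57 ± 0.83 (SE, adjusted p = 0.0144) missed the threshold without NTM 2-cell replicate 2 (3.69, adjusted p = 0.0587) or NTM 4-cell replicate 3 (3.38, adjusted p = 0.0532). Med17, a head subunit at the polymerase interface, rose in NTC embryos from 3.56, 12.5 and 13.3 RPKM to 49.9, 68 and 67.8 RPKM (2.70 ± 0.52, adjusted p = 0.00462).

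The largest increases were in vivo. Polr2h, the promoter of which is printed above, went from 0.223, 0 and 0.293 RPKM to 326, 179.8 and 251 RPKM, a log2 difference of 7.72 ± 0.37 (SE, adjusted p = 2.14e-05). Med29, a subunit of the tail that pairs with Med27, went from 0.0419, 0 and 3.12 RPKM to 294, 174 and 220.2 RPKM (7.11 ± 0.61, adjusted p = 0.000111), and Polr2k from 0.344, 0.692 and 0 RPKM to 201, 133 and 205 RPKM (7.07 ± 0.39, adjusted p = 2.7e-05). In each of these genes the 4-cell values were above every 2-cell value by more than the spread within either stage. The 3 calls held when any 1 library was left out.

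**Figure D2:**
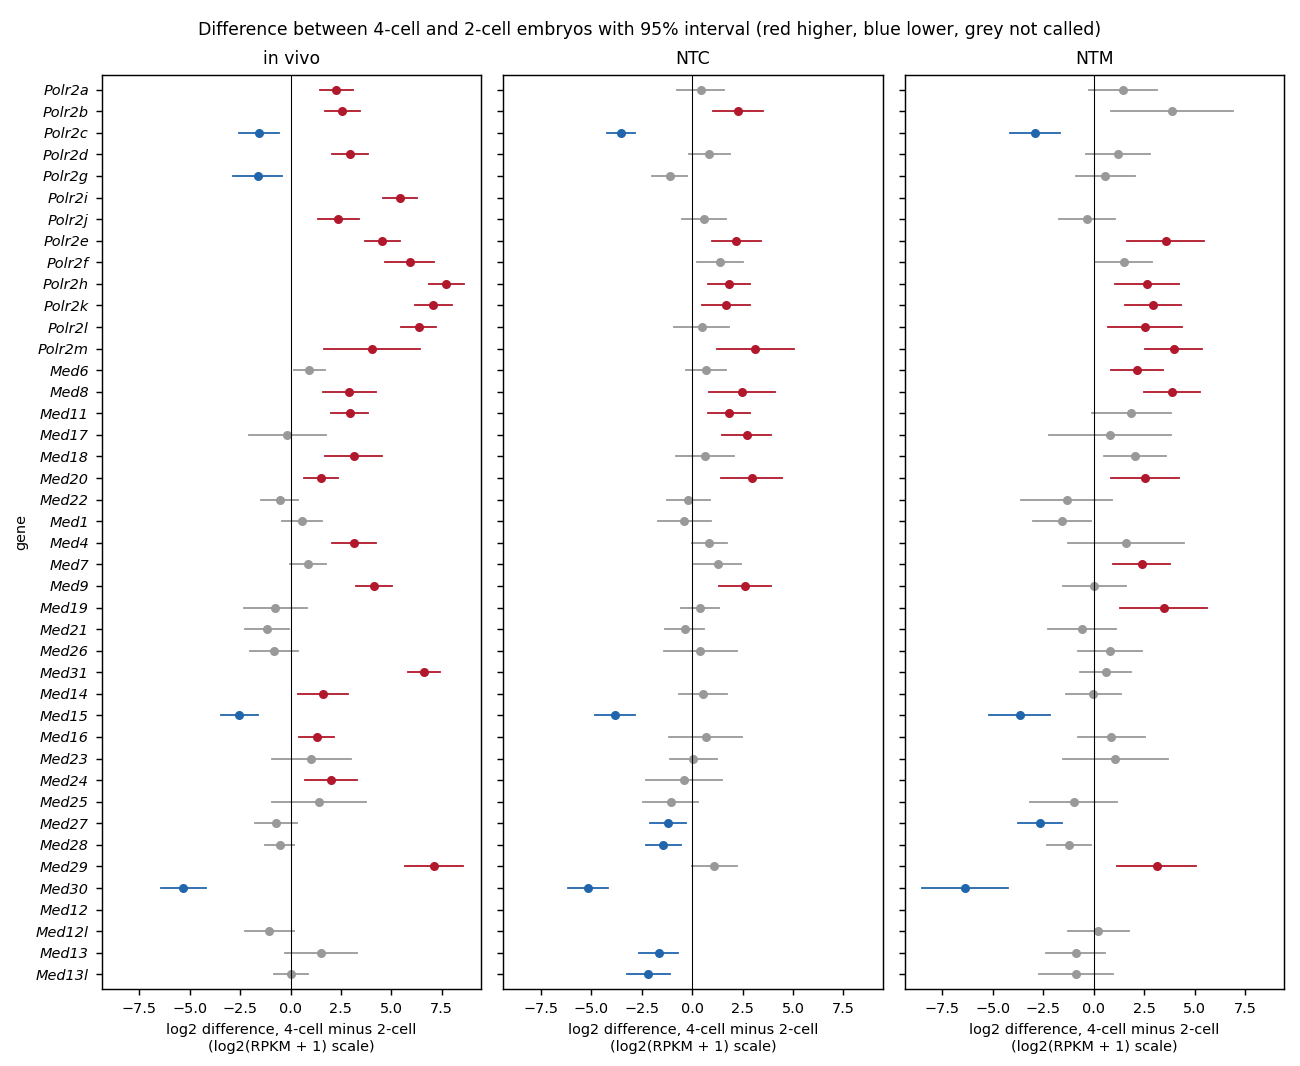
Log2 difference between 4-cell and 2-cell embryos for each of the 42 genes (rows) in each of the 3 embryo types (a panel each for in vivo, NTC and NTM), on the log2(RPKM + 1) scale, with the 95% interval of the limma fit (n = 3 and 3). Red genes were called higher, blue genes lower, and grey genes were not called, and a missing point was below the filter on low values. Polr2c, Med15 and Med30 are blue in all 3 panels, and the largest red values are in vivo (Polr2h, 7.72).

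Polr2a and Polr2b, which encode the catalytic subunits, differed in pattern. Polr2a was scarce in embryos. In donor cells it stood at 3.99, 12.1 and 12.5 RPKM (CC) and 14.2, 11.4 and 21.6 RPKM (MEF), and in the 18 embryo groups its mean ran from 0.0809 to 4.23 RPKM. In vivo it was 0.0912, 0.0917 and 0.0599 RPKM at the 2-cell stage, or 7 to 12 reads, then 4.76, 4.82 and 3.12 RPKM at the 4-cell stage and 0.0989, 0.341 and 0.0975 RPKM at the 8-cell stage. It was thus up-regulated, with a log2 difference of 2.26 ± 0.35 (SE, adjusted p = 0.00136), and then down-regulated, with a log2 difference of −2.14 ± 0.37 (SE, adjusted p = 0.00281). Both calls held when any 1 library was left out.

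In NTC embryos Polr2a was 0.252, 0.781 and 0.855 RPKM at the 2-cell stage, 0.519, 2.08 and 1.19 RPKM at the 4-cell stage, 3.47, 2.34 and 4.65 RPKM at the 8-cell stage and 5.28, 1.42 and 2.67 RPKM at the morula stage. No step between successive stages was called, and the 8-cell stage was above the 2-cell stage (1.45 ± 0.48, adjusted p = 0.0442). In NTM embryos it was 3.69, 0.3599 and 0.0571 RPKM at the 2-cell stage and 3.05, 4.45 and 5.05 RPKM at the 4-cell stage. The highest 2-cell NTM library lay among the 4-cell ones, and the change was not called. In the direct test of the change from the 2-cell to the 4-cell stage, NTC differed from in vivo by −1.82 ± 0.55 (SE, adjusted p = 0.0443). Of 12 fits without 1 library that call held in 2, those without NTC 2-cell replicate 1 and without NTC 4-cell replicate 2, and the difference ran from −2.07 to −1.57 over the 12, and with 8-cell libraries in place of the 4-cell ones the difference was 1.33 (adjusted p = 0.354). The call was also lost with no filter (−1.82, adjusted p = 0.0748), with median-ratio scaling (−1.53, adjusted p = 0.073), with nuclear genes only (−1.64, adjusted p = 0.107) and with the replicate number as a block (−1.82, adjusted p = 0.0699).

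Polr2b had a higher mean than Polr2a in each of the 18 embryo groups. Its 2-cell values were 6.96, 8.53 and 11.2 RPKM in vivo, 10.1, 21.1 and 40.6 RPKM in NTC and 68.97, 5.26 and 0.0692 RPKM in NTM. At the 4-cell stage the libraries stood at 43.8, 68.5 and 61.7 RPKM in vivo, 87.9, 80.2 and 159 RPKM in NTC and 61.4, 175 and 133 RPKM in NTM. It was up-regulated in vivo (2.57 ± 0.37, adjusted p = 0.000947) and in NTC embryos (2.27 ± 0.54, adjusted p = 0.0117). In NTM embryos 2-cell replicate 1 lay among the 4-cell values and no change was called. The exons of Polr2b overlap those of Igfbp7 on the opposite strand.

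**Figure D3:**
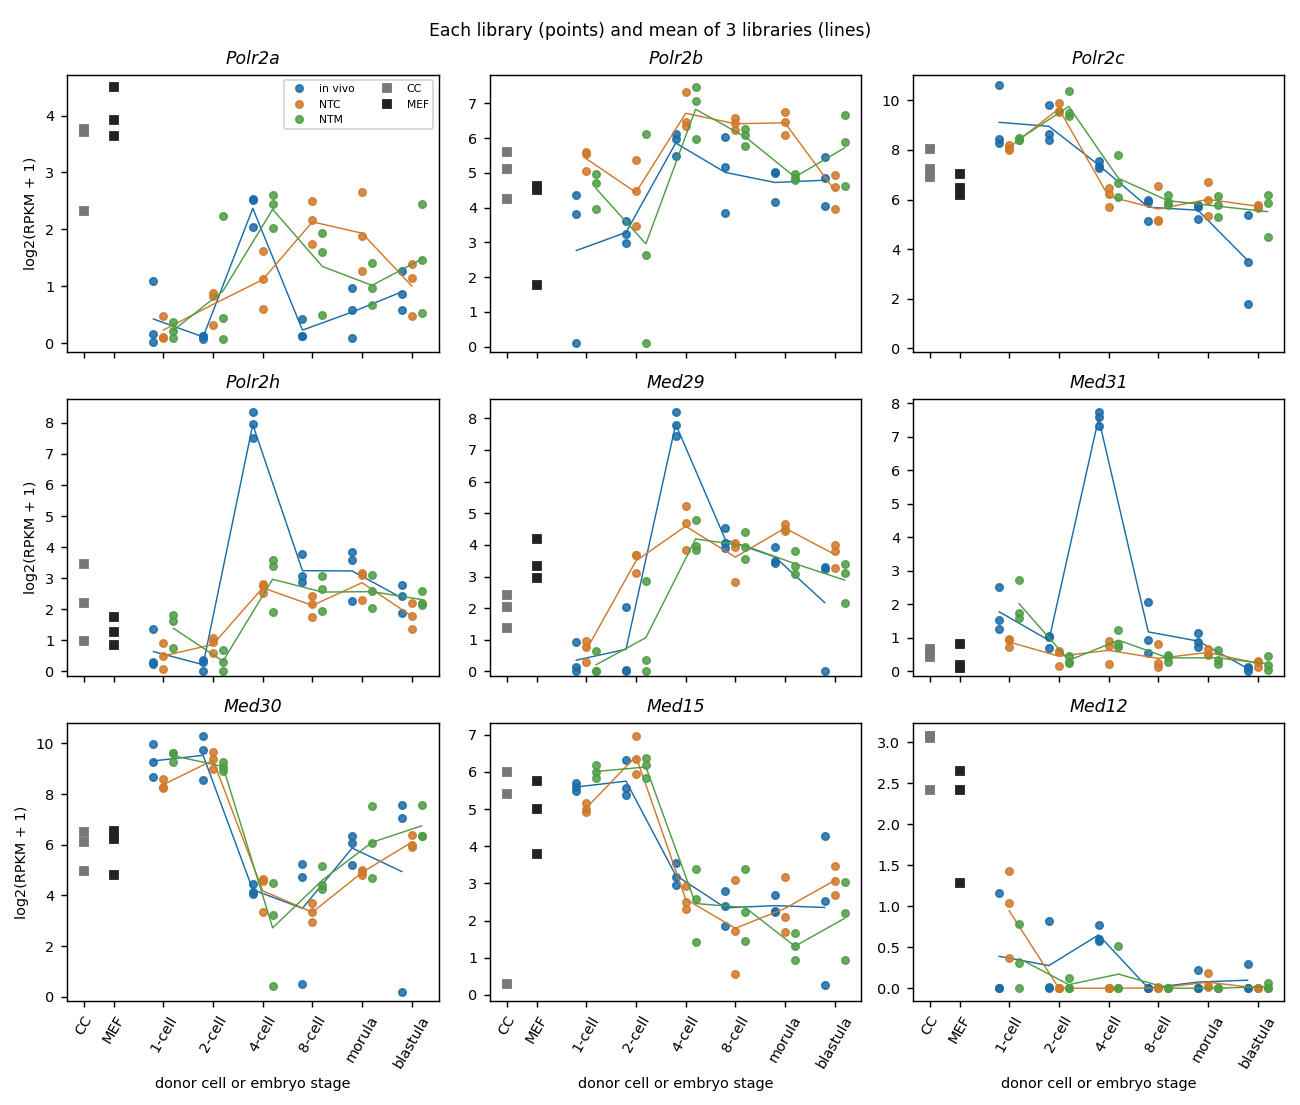
log2(RPKM + 1) of 9 members in each library (points) of donor cells and embryos from the 1-cell stage to the blastula. Lines join the means of the 3 log2 values of each embryo type. Polr2h, Med29 and Med31 peak in the 3 in vivo 4-cell libraries, Polr2c, Med15 and Med30 drop after the 2-cell stage in each embryo type, and Med12 is near 0 in most embryos.

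The second comparison asked whether the members differed between NT and in vivo embryos of the same stage. Most calls were at the 4-cell stage. NTC embryos had 17 of 40 members tested down-regulated and 0 up-regulated relative to the in vivo group (all 11457 genes: 20.4% lower, 7.4% higher), and NTM embryos had 14 of 41 down-regulated and 0 up-regulated (all 11143 genes: 17.8% lower, 3.33% higher). The lists shared 13 members, which were 13 of the 17 and 13 of the 14. Both used the same 3 in vivo libraries, so the lists are not independent. The share of all genes called in both was not computed. With the libraries scaled by median ratios the NTC counts were 11 lower and 3 higher, and the NTM counts 10 lower and 1 higher. That scaling moved the median of all genes from −0.39 to −0.08 in NTC and from −0.69 to −0.19 in NTM, and with nuclear genes only the NTC counts were again 11 and 3. In the same comparison of 8-cell embryos, the sign of the difference was the opposite in 9 of 16 of these members tested in NTC and 6 of 13 in NTM, with no call in the opposite direction.

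Med31, a small subunit of the middle module, had the largest difference among the members in both NT groups. It stood at 193, 159 and 214 RPKM (4090 to 6042 reads) in the 4-cell in vivo embryos, at 0.848, 0.683 and 0.169 RPKM (3 to 14 reads) in NTC and at 1.33, 0.769 and 0.658 RPKM in NTM. No other library of the series was above 5.64 RPKM. The log2 difference from the in vivo group was −6.94 ± 0.35 (SE, adjusted p = 5.01e-06) in NTC and −6.63 ± 0.42 (SE, adjusted p = 0.000157) in NTM. Its exons overlap a noncoding transcript (4930563E22Rik) on the opposite strand.

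Several of the shared polymerase subunits had the same pattern. Polr2k, whose coding sequence is printed above, was 3.53, 3.79 and 2.19 RPKM in NTC (−5.43 ± 0.34, adjusted p = 1.37e-05) and 9.03, 8.69 and 4.52 RPKM in NTM (−4.45 ± 0.43, adjusted p = 0.000647), against the in vivo values given above. Polr2l was 135, 145 and 159 RPKM in vivo, 2.35, 0.256 and 2.01 RPKM in NTC (−5.98 ± 0.43, adjusted p = 3.23e-05) and 1.57, 17.7 and 4.37 RPKM in NTM (−4.53 ± 0.70, adjusted p = 0.00422). Polr2h was 4.704, 5.71 and 6.06 RPKM in NTC (−5.25 ± 0.31, adjusted p = 1.24e-05) and 11.03, 2.76 and 9.55 RPKM in NTM (−4.98 ± 0.54, adjusted p = 0.00104). In each of these genes the lowest in vivo library was above the highest NT library.

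Polr2i, a core subunit at the jaw of the enzyme, was 55.3, 33.9 and 41.2 RPKM in 4-cell in vivo embryos. The highest of all other libraries, an in vivo blastula, was at 2.16 RPKM. It was 0.0865, 0.627 and 0.161 RPKM in 4-cell NTC (−5.10 ± 0.41, adjusted p = 5.64e-05) and 0.616, 0.675 and 0.134 RPKM in 4-cell NTM embryos (−4.91 ± 0.49, adjusted p = 0.000735). Polr2i passed the filter on low values in comparisons that held the 4-cell in vivo or the in vivo blastula group and in the in vivo step from the 8-cell stage to the morula, and was below it in the others. The exons of Polr2h, Polr2i, Polr2j and Polr2f overlap those of Clcn2, Tbcb, Lrwd1 and 1700088E04Rik on the opposite strands. Those of Med29 overlap the antisense transcript Gm44710, and those of Med21 overlap Tm7sf3 on the opposite strand.

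Polr2f was 1292, 797 and 886 RPKM in vivo against 56.7, 46.8 and 72.4 RPKM in NTC and 37.3, 64.5 and 35.4 RPKM in NTM. Polr2f was also the 1 member called at later stages before the blastula. In 8-cell NTM embryos it was 6.25, 16.3 and 11.8 RPKM, against 134, 94.4 and 109.8 RPKM in vivo (−3.27 ± 0.41, adjusted p = 0.0076; all genes: 0.825% lower, 1.2% higher). In NTM morulae it was 11.2, 9.02 and 7.49 RPKM, against 53.8, 75.1 and 114 RPKM in vivo (−2.95 ± 0.47, adjusted p = 0.0373; all genes: 0.112% lower, 0.0558% higher). The 8-cell call was lost without NTM 8-cell replicate 1 (−2.92, adjusted p = 0.0683), and the morula call held in 1 of 6 fits without 1 library. It was lost without in vivo morula replicate 2 (−2.98) or 3 (−2.68), or without NTM morula replicate 1 (−3.09), 2 (−2.95) or 3 (−2.83).

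Med29 was 25.03, 13.4 and 36.3 RPKM in NTC and 14.5, 26.5 and 13.2 RPKM in NTM 4-cell embryos. The log2 difference from in vivo was −3.22 ± 0.39 (SE, adjusted p = 0.000467) in NTC and −3.63 ± 0.41 (SE, adjusted p = 0.00128) in NTM, and the groups did not overlap. Med4, a middle subunit, was 212, 239 and 257 RPKM in vivo against 37.5 to 60.02 RPKM in NTC and 26.05 to 51.2 RPKM in NTM. The remaining members called in both NT groups were Polr2d, Polr2j, Polr2e, Med9 and Med11, with log2 differences from −3.58 to −1.16. Polr2c, Med18, Med22 and Med13 were called in NTC and Med24 in NTM.

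In 13 members all 3 of the 4-cell in vivo libraries were above all 57 other libraries, which was also true of 6.95% of the 13535 genes with a mean of at least 0.5 RPKM. The 13 members were Polr2d, Polr2i, Polr2j, Polr2e, Polr2f, Polr2h, Polr2k, Polr2l, Med4, Med9, Med11, Med31 and Med29. They were the same 13 that were called lower than in vivo in both NT groups at the 4-cell stage, so both results rest on the same 3 in vivo libraries. Between the 4-cell and the 8-cell stage in vivo, 25 of 40 members were lower and 1, Med21, was higher (all 10417 genes: 39.3% lower, 4.4% higher). Of the 22 members that rose from the 2-cell to the 4-cell stage in vivo, 18 were among those that fell. Both steps use the same 3 in vivo 4-cell libraries, so a gene high in them tends to rise in one step and fall in the next. The share of all rising genes that fell again was not computed. With median-ratio scaling 12 were lower and 4 higher, and the median of all genes moved from −1.05 to −0.33. In NTC and NTM embryos limma called 0 members between the 4-cell and the 8-cell stage (2 and 4 had an unadjusted p under 0.05, and 0.0564% of all genes in NTC and 0.363% in NTM were called).

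The members called at the 4-cell stage were mostly those with short coding sequences, a grouping chosen after the values had been seen. Of the 11 members with a coding sequence under 500 bases (Polr2d, Polr2f, Polr2h, Polr2i, Polr2j, Polr2k, Polr2l, Med9, Med11, Med21 and Med31), 10 were lower in NTC and 10 in NTM than in vivo, and Med21 was the exception in both. Of all protein-coding genes with so short a coding sequence, 38.9% had lower values in NTC embryos and 32.8% in NTM embryos, against 13.6% and 11.2% where the coding sequence had 2000 bases or more. Of the members in that longest class, 1 of 11 was lower in NTC and 1 of 12 in NTM. Across members, the log2 difference and the log2 coding length had a Pearson correlation of 0.482 in NTC (40 members) and 0.546 in NTM (41 members), a description across genes that share their libraries. The correlation was not particular to the 4-cell stage. For 8-cell NT against in vivo embryos it was 0.569 in NTC (38 members) and 0.309 in NTM (40 members). For blastulas it was −0.069 in NTC and 0.0451 in NTM (39 members each). Of the short members, 10 of 11 were also higher at the 4-cell than at the 2-cell stage in vivo, against 51.6% of all genes of that length. The part of coding length in these results was not tested.

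**Figure D4:**
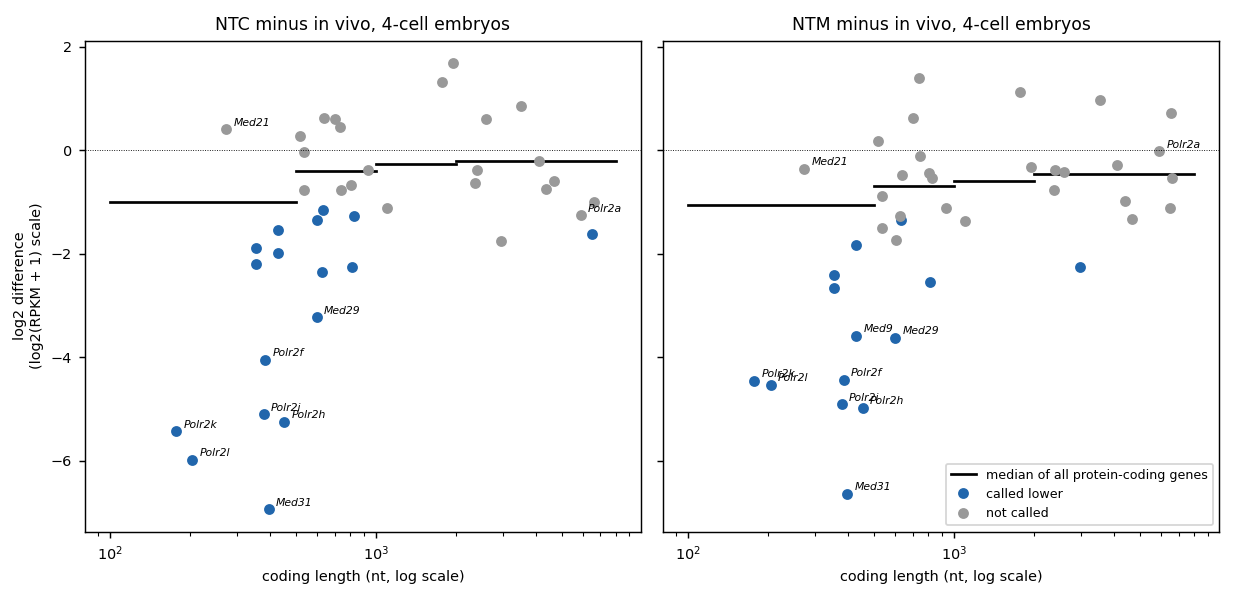
Log2 difference between 4-cell NT and in vivo embryos (log2(RPKM + 1) scale) of each member tested against its coding length on a log axis, for NTC and NTM. Blue points were called lower and grey points were not called, and black lines are medians of all protein-coding genes in 4 length classes. The lowest points are short genes, led by Med31 (−6.94 and −6.63).

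With the 8-cell libraries in place of the 4-cell libraries, 5 members were higher and 8 lower than at the 2-cell stage in vivo (all genes: 13.8% and 27.8%), 7 and 6 in NTC (14.1% and 21%) and 9 and 7 in NTM (17.9% and 21.9%). Polr2k was higher in all 3 types (2.55, 1.78 and 2.26 on the log2 scale), and Polr2c, Med15, Med28 and Med30 were lower in all 3. Polr2e, Polr2f, Polr2h, Polr2k and Med29 were higher at both the 4-cell and the 8-cell stage than at the 2-cell stage in vivo. The log2 difference of Med30 was −6.04 in vivo, −6.00 in NTC and −4.48 in NTM.

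The difference in the change from the 2-cell to the 4-cell stage was tested directly. In NTC embryos the difference from in vivo was negative and called in 14 of 41 members (all 13221 genes: 12% lower, 2.38% higher). In NTM embryos it was negative in 9 and positive in 1, Med19 (all 13062 genes: 8.05% lower, 1.86% higher). Polr2f, Polr2h, Polr2i, Polr2k, Polr2l, Med29 and Med31 were called in both. With the 8-cell libraries in place of the 4-cell ones, limma called 0 members in either group, and 7 of 40 in NTC and 9 of 40 in NTM had an unadjusted p under 0.05 (all genes called: 0.219% and 0.577%).

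Of the Mediator backbone and the receptor-binding subunit, Med14 rose in vivo from 7.96, 4 and 17.7 RPKM at the 2-cell stage to 23.7, 24.9 and 35.7 RPKM at the 4-cell stage (1.60 ± 0.53, adjusted p = 0.0386). It was called in 1 of 6 fits without 1 library. The call was lost without in vivo 2-cell replicate 1 (1.57) or 2 (1.15), without in vivo 4-cell replicate 1 (1.71), 2 (1.68) or 3 (1.43), and with median-ratio scaling (1.44, adjusted p = 0.0654). In NT embryos Med14 had 9.06 to 29.1 RPKM in NTC and 8.43 to 19.8 RPKM in NTM at the 4-cell stage. No step between successive stages was called, while the 8-cell stage was above the 2-cell stage in NTC (1.60 ± 0.46, adjusted p = 0.0276). Med1, the middle subunit that nuclear receptors bind, was 10.2, 21.6 and 15.7 RPKM at the 4-cell stage in vivo and 5.13, 1.202 and 1.16 RPKM at the 8-cell stage (−2.39 ± 0.53, adjusted p = 0.0084), a call that median-ratio scaling ended (−1.25, adjusted p = 0.107). In NTC embryos its mean was 15.8 RPKM at the 1-cell stage and 3.65 RPKM at the blastula stage, and in NTM embryos 14.7 and 4.36 RPKM. No step between successive stages was called there, and the 8-cell stage was below the 2-cell stage in NTM (−1.34 ± 0.40, adjusted p = 0.0313).

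Med12, which activates the kinase of the module, was 4.36, 7.299 and 7.45 RPKM in CC and 1.44, 5.26 and 4.34 RPKM in MEF. Among embryos the highest value was 1.68 RPKM, in a 1-cell NTC embryo. In 8-cell in vivo, 2-cell and 4-cell NTC, NTC blastula, 8-cell NTM and NTM morula embryos all 3 libraries were at 0 reads, which allows at most 0.0152 to 0.0736 RPKM in a library. Med12 was lower in 1-cell NTC embryos (0.295, 1.05 and 1.68 RPKM) than in CC (−1.91 ± 0.38, adjusted p = 0.00805) and lower in 1-cell NTM embryos (0.238, 0 and 0.716 RPKM) than in MEF (−1.76 ± 0.47, adjusted p = 0.0175). The second call was lost without MEF replicate 2 (−1.49) or 3 (−1.60) or NTM 1-cell replicate 1 (−1.73) or 2 (−1.57). A noncoding transcript (Gm21986) shares exons with Med12 on the same strand.

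Med12l, the paralogue of Med12, was 0 to 0.191 RPKM in CC and 0 to 1.96 RPKM in MEF, and had its highest mean in NTM morulae (3.2, 5.97 and 1.45 RPKM). It was not called in any of the comparisons it entered. Its exons overlap those of Igsf10 and P2ry12 on the opposite strand.

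Med13 links the kinase module to the rest of Mediator. In NTC embryos it was 12.4, 12.02 and 11.9 RPKM at the 2-cell and 4.04, 3.22 and 2.35 RPKM at the 4-cell stage (−1.66 ± 0.43, adjusted p = 0.0165; without NTC 4-cell replicate 3, −1.51, adjusted p = 0.0519). In vivo it was 6.996, 0.352 and 7.31 RPKM and then 18.7, 10.4 and 8.27 RPKM, which was not called. From there it fell to 1.66, 4.02 and 0.636 RPKM at the 8-cell stage (−2.19 ± 0.53, adjusted p = 0.0121), a call lost without in vivo 4-cell replicate 1 (−1.88) and with median-ratio scaling (−1.08). Med13 was lower in 4-cell NTC than in vivo embryos (−1.62 ± 0.44, adjusted p = 0.0247). That call was lost without in vivo 4-cell replicate 1 (−1.31) or 2 (−1.71) or NTC 4-cell replicate 3 (−1.47), with median-ratio scaling (−1.22) and with nuclear genes only (−1.26).

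Med13l, the paralogue of Med13, fell in NTC embryos from 4.55, 5.89 and 4.26 RPKM to 0.1902, 0.596 and 0.152 RPKM (−2.17 ± 0.46, adjusted p = 0.00726), and every fit without 1 library called it. In vivo it was 2.17, 1.37 and 1.21 RPKM and then 2.16, 1.16 and 1.57 RPKM, and fell to 0.07699, 0.00625 and 0.0335 RPKM at the 8-cell stage (−1.32 ± 0.35, adjusted p = 0.0166). The 8-cell call was lost without in vivo 8-cell replicate 2 (−1.30) or 3 (−1.32) and with median-ratio scaling (−0.87).

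The third comparison set 1-cell NT embryos against their donor cells. Oocyte transcripts summed to 2382 to 2795 RPKM in 1-cell NTC embryos against 7.67 to 10.2 RPKM in CC, and to 4150 to 4764 RPKM in 1-cell NTM embryos against 0 to 8.39 RPKM in MEF, and their part in these differences was not tested. In NTC embryos 7 of 41 members were higher and 10 lower than in CC (all 12819 genes: 29.3% higher, 20.8% lower), and in NTM embryos 20 of 41 were higher and 8 lower than in MEF (all 13082 genes: 25.2% and 29.9%). Polr2d, Med17, Med1, Med23, Med27, Med28 and Med30 were higher in both, and Polr2a, Polr2m, Med25, Med29 and Med12 lower in both.

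Polr2a was 0.0699, 0.0799 and 0.402 RPKM in 1-cell NTC embryos (against CC, −3.03 ± 0.47, adjusted p = 0.00275) and 0.2998, 0.06702 and 0.154 RPKM in 1-cell NTM embryos (against MEF, −3.79 ± 0.34, adjusted p = 0.000112). Both groups lay below every donor library. Med1 went the other way, with 18.02, 15.8 and 13.5 RPKM in NTC against 2.54, 4.36 and 1.33 RPKM in CC (2.24 ± 0.38, adjusted p = 0.00396) and 12.4, 17.3 and 14.4 RPKM in NTM against 3.56, 1.94 and 1.29 RPKM in MEF (2.31 ± 0.36, adjusted p = 0.00152). In NTM embryos Med14 (2.22 ± 0.47, adjusted p = 0.00666) and Med13 (1.23 ± 0.31, adjusted p = 0.013) were also higher than in MEF, and Med13l was lower (−1.67 ± 0.36, adjusted p = 0.00672).

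The 2 kinds of 1-cell NT embryo differed in 8 of 37 members, with 6 higher and 2 lower in NTM than in NTC (all 10799 genes: 5.64% higher, 14.2% lower). Polr2j, the partner of Polr2c, was 16.03, 12.4 and 18.8 RPKM in NTM and 4.02, 3.01 and 5.62 RPKM in NTC (1.70 ± 0.31, adjusted p = 0.00566). Med22, a head subunit, was 59.3, 42.6 and 66.8 RPKM against 17.4, 16.7 and 19.02 RPKM (1.59 ± 0.23, adjusted p = 0.00223), and Polr2g 238, 229 and 200.1 RPKM against 83.3, 78.9 and 73.8 RPKM (1.49 ± 0.16, adjusted p = 0.000551). Med21, Med27 and Med30 were the other members higher in NTM.

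Med25, a tail subunit bound by activators, was lower in NTM, at 1.66, 0.707 and 0.0791 RPKM against 14.2, 7.38 and 13.8 RPKM in NTC (−2.87 ± 0.43, adjusted p = 0.00274). Med17 was 47.9, 106 and 51.4 RPKM against 135, 199 and 178 RPKM (−1.38 ± 0.31, adjusted p = 0.0137), a call lost without NTC 1-cell replicate 2 (−1.26) or 3 (−1.34). NTM and NTC did not overlap in Polr2j, Med22, Polr2g, Med25 or Med17. The summed oocyte transcripts given above were higher in all 3 NTM than in all 3 NTC libraries, while limma called 0 of the 9 genes (4 with an unadjusted p under 0.05), and their part in the result was not tested. Between the donors themselves Med19 was the 1 member called of 39, at 5.94, 4.31 and 0.0406 RPKM in MEF against 89.99, 42.9 and 56.6 RPKM in CC (−4.18 ± 0.79, adjusted p = 0.0155; 2.3% of all genes lower, 3.99% higher). It was lost without CC replicate 1 (−3.90) or 3 (−4.23) or MEF replicate 2 (−4.51). The exons of Med19 overlap those of Tmx2 and Zdhhc5 on the opposite strand.

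Over the step between the 1-cell and 2-cell stages limma called 0 of 37 members in vivo (1 with an unadjusted p under 0.05; 0% of all genes called), 4 higher and 3 lower in NTC (all genes: 4.53% and 8.95%) and 2 higher and 4 lower in NTM (all genes: 2.72% and 6.68%). Polr2c rose in both NT groups, by 1.57 ± 0.18 (SE, adjusted p = 0.00117) in NTC and 1.32 ± 0.29 (SE, adjusted p = 0.0253) in NTM. Med15, Med27 and Med29 also rose in NTC, where Polr2d, Med17 and Med22 fell, and in NTM Med25 rose while Polr2g, Med8, Med21 and Med22 fell. The NTC count of 7 was 3 without NTC 1-cell replicate 2, 3 without NTC 1-cell replicate 3 and 11 without NTC 2-cell replicate 2, and with median-ratio scaling the split was 6 higher and 1 lower. The NTM count of 6 was 1 without NTM 1-cell replicate 1, 2 without NTM 1-cell replicate 2 and 0 without NTM 1-cell replicate 3. From the 8-cell stage to the morula limma called 0 members in vivo, in NTC or in NTM (4, 5 and 6 with an unadjusted p under 0.05; 0.0116%, 0% and 0% of all genes called).

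From the morula to the blastula stage limma called 0 members in vivo (9 with an unadjusted p under 0.05; 0.801% of all genes called) and in NTM (4; 4.22% of all genes called), and 4 of 39 in NTC (all genes: 4.54% higher, 2.62% lower). Polr2b fell from 87.9, 106 and 67.5 RPKM to 14.7, 23.1 and 29.6 RPKM (−1.94 ± 0.36, adjusted p = 0.0158). Med20 fell from 13.1, 10.99 and 11.9 to 4.95, 3.48 and 3.69 RPKM (−1.38 ± 0.36, adjusted p = 0.0499) and Med6 from 77.6, 129 and 108 to 53.8, 39.3 and 36.9 RPKM (−1.24 ± 0.32, adjusted p = 0.0484). Med30 rose from 28.9, 30.96 and 27.1 to 62.8, 83.6 and 58.9 RPKM (1.20 ± 0.30, adjusted p = 0.0441). The groups did not overlap in any of the 4. The call on Polr2b was lost without NTC morula replicate 1 (−1.92), NTC blastula replicate 1 (−1.68) or NTC blastula replicate 2 (−1.99), and the other 3 calls were lost without any 1 of the 6 libraries, over which the log2 difference ran from −1.50 to −1.30 for Med20, −1.44 to −1.08 for Med6 and 1.05 to 1.29 for Med30. With median-ratio scaling 3 were lower and 0 higher. In the direct test of this step against in vivo embryos limma called 0 members in NTC (8 with an unadjusted p under 0.05; 0.236% of all genes called) and in NTM (12; 0.647%).

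Between NT and in vivo blastulas, Med4, Med26 and Med13 were higher in NTC (3 of 39; 8.81% of all genes higher, 0.657% lower), and 0 members were called in NTM (12 with an unadjusted p under 0.05; 0.746% of all genes called). Med4 was 20.6, 30.9 and 18.9 RPKM against 0.928, 0.0896 and 1.07 RPKM in vivo (3.87 ± 0.62, adjusted p = 0.0261). Med26, which recruits elongation factors, was 8.57, 7.19 and 13.6 RPKM against 0.0209, 0.115 and 0 RPKM (3.33 ± 0.54, adjusted p = 0.0267), and Med13 was 4.42, 3.22 and 5.26 RPKM against 0.00587, 0.0108 and 0.209 RPKM (2.29 ± 0.46, adjusted p = 0.0329). All 3 in vivo libraries were below all 3 NTC libraries in each gene. Med26 and Med13 were under 0.5 RPKM in every in vivo blastula library and passed the filter on low values through the NTC libraries. Their lack of overlap is thus no separate support. The exons of Med26 and Med13 overlap those of the antisense transcripts Gm17435 and Brip1os. In NTM blastulas the values were 13.8, 36.5 and 17.9 RPKM for Med4 and 18.1, 28.2 and 2.47 RPKM for Med26.

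The 3 NTC calls were lost without NTC blastula replicate 2 (Med4 3.67, Med26 3.50, Med13 2.44) and with median-ratio scaling (Med4 3.31, Med26 2.86, Med13 1.88), and that on Med13 also without in vivo blastula replicate 2 (2.25). With no filter on low values all 3 calls were lost too (adjusted p = 0.052 for Med4, 0.057 for Med26 and 0.078 for Med13). They were also lost with the replicate number as a block (adjusted p = 0.099, 0.099 and 0.12). The 3 libraries of in vivo blastulas detected 7730 to 7808 genes, the fewest of the 20 groups. Between NT and in vivo embryos limma called 0 members at the 1-cell stage (10 in NTC and 2 in NTM with an unadjusted p under 0.05; 1.16% and 1.28% of all genes called) and the 2-cell stage (3 and 4; 0.152% and 0.141%). In NTC it also called 0 at the 8-cell stage (11; 1.46%) and the morula stage (6; 0.0321%).

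The wider transcription machinery was compared by gene lists. From the 2-cell to the 4-cell stage in vivo, 16 of 35 general transcription factors tested were higher and 7 lower, 15 of 32 elongation factors were higher and 4 lower, and 7 of 14 Integrator genes were higher and 1 lower (all genes: 31.4% higher, 20.8% lower). All 8 genes of the RNA polymerase I list, which holds Polr1c and Polr1d, subunits also used by RNA polymerase III, and 7 of 11 genes of the RNA polymerase III list were higher, with 0 lower and median log2 differences of 4.53 and 2.98. In NTC embryos 4 of 8 genes of the first and 6 of 10 of the second list rose, and in NTM embryos 2 of 7 and 3 of 11, and 0 fell in either list (all genes: 16.4% higher and 20.1% lower in NTC, 12.1% and 14.3% in NTM). General transcription factors were higher and lower in 8 and 6 of 34 cases in NTC and in 4 and 7 of 34 in NTM. With the 8-cell libraries in place of the 4-cell ones in vivo, 1 of 33 general transcription factors was higher and 9 lower than at the 2-cell stage (all genes: 13.8% higher, 27.8% lower). More of that list was lower than higher, as among all genes. Elongation factors then had 7 of 31 higher and 5 lower, Integrator genes 1 of 12 higher and 0 lower, the RNA polymerase I list 3 of 6 higher and 0 lower, and the RNA polymerase III list 1 of 10 higher and 1 lower.

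At the 4-cell stage, NTC embryos had 5 of 8 genes of the RNA polymerase I list below the in vivo level and NTM embryos 4 of 8, with 0 above it (all genes: 20.4% lower and 7.4% higher in NTC, 17.8% and 3.33% in NTM). They included Polr1d (−6.42, adjusted p = 5.16e-06 in NTC and −5.62, adjusted p = 0.00019 in NTM) and its partner Polr1c (−4.72 and −5.11), both shared with RNA polymerase III. Of the RNA polymerase III list, 1 of 10 was lower and 1 higher in NTC, and 0 of 10 were called in NTM. Among general transcription factors 13 of 32 were lower and 4 higher in NTC, and 10 and 2 in NTM, with Gtf2h5, a small TFIIH subunit, among the lower ones (−6.02 and −5.17). Of 11 genes tested for assembly of the enzyme and dephosphorylation of its tail, 5 were lower and 1 higher in NTC and 4 lower in NTM, among them Gpn3 (−3.87 and −3.57) and Ssu72 (−2.08 and −3.13). Ccnc, the cyclin of the Mediator kinase, rose over the step to the 4-cell stage in vivo (2.48, adjusted p = 0.00107), in NTC (2.68, adjusted p = 0.00648) and in NTM (2.81, adjusted p = 0.0143), and 0 of the 3 kinase partners were called between NT and in vivo 4-cell embryos (0 in NTC and 1 in NTM with an unadjusted p under 0.05).

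Between NT and in vivo 8-cell embryos limma called 0 of 31 general transcription factors in NTC (4 with an unadjusted p under 0.05) and in NTM (3), 0 of 8 genes of the RNA polymerase I list (1 in each) and 0 of 12 and 0 of 9 genes for assembly and dephosphorylation (2 and 1). In the RNA polymerase III list 1 of 10 was higher in each (all genes: 1.46% called in NTC, 1.2% higher and 0.825% lower in NTM).

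The genes whose group means over the 18 embryo groups were most like those of Polr2a, among 5733 genes with a mean of at least 5 RPKM in embryos, were Cdkn1a (Pearson correlation 0.874), Utp23 (0.854), Wdr61 (0.852), Vkorc1l1 (0.851) and Bid (0.849). These are correlations over 18 group means that share their libraries, and are given as a description.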

How the data were processed

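RNA of single embryos and donor cells was amplified after poly(A) tailing and sequenced without molecular identifiers, 3 libraries in each of 20 groups. Per the study's methods the authors aligned reads with TopHat, counted them with HTSeq and expressed them as FPKM, and the deposited table is named as RPKM, with the step between not given in the sources used here. Per the labels the submitters' processing notes name mm8 and Bowtie 0.12.2, and strand was not stated. The deposited RPKM values were not rescaled. Ensembl identifiers were matched to GENCODE M21 (GRCm38), with 27056 of 27238 found. Read counts were recovered from RPKM steps, with a tolerance of 0.02 for a whole read. The annotated length was used for 31 members and a length inferred from the steps for 11. Recovered reads summed to 96.663 to 99.804% of the inferred depth per library, and served for depths and floors alone. A floor is 3 reads in 1 library and covers counting error only.

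Groups were compared pairwise with limma 3.58.1 (R 4.3.3), with a trend on the mean, on log2(RPKM + 1) for genes with a mean of at least 0.5 RPKM in the libraries compared, and differences in change were fitted as interactions over 4 groups. P-values were adjusted by Benjamini-Hochberg over all genes tested, in 31 comparisons of 2 groups and 4 of changes. Shares of all genes called were computed for each comparison alone, and not for calls shared by several comparisons. The script was tested on simulated data. Alternatives were a pseudocount of 0.1, no filter, median-ratio scaling, nuclear genes only, 1 fit over all groups, a replicate block and leaving out each library. Libraries of a group correlated across genes at 0.636 to 0.957, and no 2 were identical.

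The members, gene lists, tests and comparisons were chosen with earlier results of these data known. Values in every library were given for Polr2a, Polr2b, Med14, Med1, Med12, Med12l, Med13 and Med13l and for the 3 largest called differences in each direction of the main comparisons, with all called members where 5 or fewer were called. Other members, Polr2e at both stages, the short subunits and those shared between groups were given after their values were seen. Mediator genes were grouped by module, with Med27, Med28, Med29 and Med30 placed with the tail.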

Additional observations from a re-analysis of the deposited data

Results flagged for a closer look

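The change from the 2-cell to the 4-cell stage differed from that of in vivo embryos, by limma's test of the difference itself, in 14 members in NTC and 10 in NTM embryos. Values are the NT change minus the in vivo change on the log2(RPKM + 1) scale, and both sets use the same 6 in vivo libraries.

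In NTC embryos the difference was called in all 12 fits without 1 library for Polr2i (−5.19, adjusted p = 6.48e-05), Polr2f (−4.52, adjusted p = 0.00155), Polr2h (−5.90, adjusted p = 3.09e-05), Polr2k (−5.39, adjusted p = 0.000137), Polr2l (−5.88, adjusted p = 0.000154), Med31 (−6.46, adjusted p = 1.65e-05), Med29 (−6.02, adjusted p = 0.000397) and Med13l (−2.20, adjusted p = 0.0144). It was called in fewer of the 12 fits for Polr2a (−1.82, adjusted p = 0.0443, 2 of 12, from −2.07 to −1.57), Polr2c (−1.98, adjusted p = 0.0238, 7 of 12, from −2.41 to −1.70), Polr2d (−2.10, adjusted p = 0.0307, 6 of 12, from −2.33 to −1.75), Polr2e (−2.34, adjusted p = 0.0346, 4 of 12, from −2.90 to −2.03), Med4 (−2.29, adjusted p = 0.0223, 8 of 12, from −2.73 to −1.88) and Med13 (−3.17, adjusted p = 0.0304, 5 of 12, from −3.62 to −2.31).

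In NTM embryos the difference was called in all 12 fits without 1 library for Polr2i (−4.98, adjusted p = 0.000417), Polr2f (−4.42, adjusted p = 0.00409), Polr2h (−5.09, adjusted p = 0.00138), Polr2k (−4.12, adjusted p = 0.00214), Polr2l (−3.83, adjusted p = 0.0178), Med9 (−4.12, adjusted p = 0.00473) and Med31 (−6.03, adjusted p = 0.000218). It was called in fewer of the 12 fits for Polr2j (−2.70, adjusted p = 0.0306, 7 of 12, from −2.99 to −2.33), Med19 (4.22, adjusted p = 0.0489, 3 of 12, from 3.31 to 5.09) and Med29 (−3.99, adjusted p = 0.038, 4 of 12, from −4.66 to −3.11).

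With 8-cell libraries in place of the 4-cell ones, limma called 0 of these differences, and Polr2i fell below the filter on low values and was not tested. The NTC calls on Polr2a and Med13 were also lost with no filter, median-ratio scaling or nuclear genes only. That on Polr2a was lost with the replicate block, that on Med13 with a pseudocount of 0.1, and that on Med13l with a single fit over all 20 groups. No group had 4 or more libraries, so no single library was tested as standing apart within its group.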

How the results depend on the processing

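Counts are of members called by limma (Benjamini-Hochberg adjusted p under 0.05 and a log2 difference of at least 1), each recomputed with 1 choice changed. In the refits of members given by name that are counted below, no called difference changed sign. The 8-cell libraries were not among those refits, and with them some signs turned, with no call in the new direction. Of 215 recomputed counts, not including fits without 1 library, 164 stayed within 1.5 times the value in the report. For members given by name, 320 of 372 calls stayed on their side of the threshold under the same alternatives and 310 of 390 without 1 library. Among calls given by name, no filter ended those on Polr2g and Med14 in vivo and Polr2m in NTC (2-cell to 4-cell), Polr2f in NTM (8-cell and morula) and Med17 in NTM at the 1-cell stage. Calls on Polr2b, Med6, Med20 and Med30 from morula to blastula in NTC were lost in the same way. So were those on Med4, Med26 and Med13 between NTC and in vivo blastulas and on Med19 between the donors. A pseudocount of 0.1 ended those on Med14, on Med20 from morula to blastula in NTC and on Med19 between the donors. In the NTC difference in change from the 2-cell to the 4-cell stage, it also ended that on Med13 (−3.96, adjusted p = 0.072). No filter, median-ratio scaling and nuclear genes only each ended the calls on Med13 and Polr2a there, and the single fit ended that on Med13l (−2.20, adjusted p = 0.058). The single fit ended those on Med22, Polr2g and Med17 in NTM at the 1-cell stage and on Med13 in NTM against MEF, and both the single fit and the block ended that on Med13l from the 4-cell to the 8-cell stage in vivo. From morula to blastula in NTC the single fit ended those on Polr2b, Med6, Med20 and Med30, and the block those on Med6, Med20 and Med30. The block also ended those on Med4, Med26 and Med13 in NTC blastulas and on Polr2a in the NTC difference in change.

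With 8-cell libraries in place of 4-cell ones, a choice made after the data had been seen, the count for the change from the 2-cell stage was 13 in vivo in place of 26, and 0 members differed from in vivo in that change in NTC (14 with the 4-cell libraries) or NTM (10). Of the calls made with 4-cell libraries, the sign turned, with no call in the new direction, in 3 of 24 members tested in vivo and 0 of 17 in NTC and 0 of 15 in NTM for the change from the 2-cell stage. It turned in 9 of 16 for NTC and 6 of 13 for NTM against in vivo embryos, and in 3 of 13 (Polr2a, Polr2d and Med4) for NTC and 2 of 9 (Polr2l and Med9) for NTM in the difference in change. With median-ratio scaling 16 members were called between the 4-cell and 8-cell stages in vivo (26 without it), 2 between NTC and in vivo 8-cell embryos (0), 0 between NTC and in vivo blastulas (3), and 9 in the NTC difference in change from the 2-cell to the 4-cell stage (14). With a pseudocount of 0.1 the count was 1 in place of 0 for the in vivo morula-to-blastula step, for NTC against in vivo 8-cell embryos and for the NTC difference in morula-to-blastula change. It was 6 (3) for NTC and 5 (0) for NTM against in vivo blastulas, 0 (1) for MEF against CC, 5 (10) for the NTM difference in change from the 2-cell to the 4-cell stage and 3 (0) for the NTM difference in morula-to-blastula change. With nuclear genes only it was 1 (0) for the in vivo morula-to-blastula step and for NTC against in vivo 8-cell embryos, 5 (0, all higher) for NTM against in vivo blastulas, 8 (14) for the NTC difference in change from the 2-cell to the 4-cell stage and 2 (0) for the NTM difference in morula-to-blastula change.

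With no filter on low values, which adds genes to the adjustment, the count was 0 (4) for the NTC morula-to-blastula step, 2 (6) for the NTM step from the 1-cell to the 2-cell stage, 9 (15) for the NTM step to the 4-cell stage, 0 (3) for NTC against in vivo blastulas, and 0 (1) for NTM against in vivo 8-cell embryos and morulae and for MEF against CC. A single fit over all 20 groups, which shares 1 estimate of the spread, gave 12 (0) in vivo, 0 (4) in NTC and 1 (0) in NTM from morula to blastula, and 2 (7) in NTC and 12 (6) in NTM from the 1-cell to the 2-cell stage. From the 4-cell to the 8-cell stage it gave 1 (0) in both NT groups. Against in vivo embryos it gave 3, 1, 4 and 14 members in NTC at the 1-cell, 2-cell, 8-cell and blastula stages (0, 0, 0 and 3 in separate fits) and 1, 2, 3 and 13 in NTM (0, 0, 1 and 0). It gave 4 (8) for NTM against NTC at the 1-cell stage, 3 (1) for MEF against CC, and 3 (0) and 4 (0) for the NTC and NTM differences in morula-to-blastula change. Apart from what the absence of the filter and the shared spread do by construction, the cause was not tested.

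Replicate numbers were shared between groups but did not pair the libraries, since all 3 correlations of same-numbered libraries were above 0.1 in 0 of 31 comparisons. With the replicate number as a block the count was 1 (4) for the NTC and 1 (0) for the NTM morula-to-blastula step, 2 (0) for NTC and 2 (1) for NTM against in vivo 8-cell embryos and 0 (3) for NTC against in vivo blastulas, and every other count stayed within 1.5 times its value.

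Without any 1 library the counts ran from 21 to 29 in vivo, 10 to 15 in NTC and 8 to 13 in NTM for the step from the 2-cell to the 4-cell stage, 22 to 27 from the 4-cell to the 8-cell stage in vivo, 3 to 11 in NTC and 0 to 9 in NTM from the 1-cell to the 2-cell stage, and 0 to 1 in each embryo type from morula to blastula. Against in vivo embryos they ran from 13 to 17 in NTC and 11 to 15 in NTM at the 4-cell stage, 0 to 6 in each at the blastula stage, 0 to 8 in NTC and 0 to 1 in NTM at the 1-cell stage, and 0 to 1 in NTM at the 8-cell and morula stages. They ran from 6 to 10 for NTM against NTC at the 1-cell stage, 0 to 1 for MEF against CC, 12 to 19 for NTC against CC and 23 to 28 for NTM against MEF. For the differences in change they ran from 9 to 14 in NTC and 7 to 11 in NTM (2-cell to 4-cell), and 0 to 1 in NTC and 0 to 3 in NTM (morula to blastula). In the other comparisons the count was 0 in every fit without 1 library.

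With 3 libraries a group and no molecular identifiers, a count of 0 called members does not show that values were alike. Members under about 1 RPKM rest on few reads, and floors cover counting error only.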
